A study of Homo sapiens with 4 samples.

Results

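Microtubules are hollow polymers of α- and β-tubulin, each encoded by several genes whose products mix in one polymer and form the mitotic spindle and the tracks for intracellular transport. Stathmin, the product of STMN1, binds free tubulin dimers, slows polymer growth and is switched off by phosphorylation as cells enter mitosis. Cells also hold the pool of tubulin mRNA steady by autoregulation, in which the start of a newly made tubulin chain on the ribosome is read when free tubulin is in excess and the mRNA is then degraded.

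The 10 genes described here are 3 α-tubulin genes (TUBA1A, TUBA1B and TUBA1C), 6 β-tubulin genes (TUBB, TUBB2A, TUBB2B, TUBB3, TUBB4B and TUBB6) and STMN1. They were chosen by symbol from the 20372 genes of the count table and take 11 of its rows, since TUBB3 has 2. The cells were TPC1, an established human papillary thyroid carcinoma line with a CCDC6-RET fusion, grown in medium with fetal bovine serum and treated with BLU6864, an inhibitor of the RET kinase. The labels give a dose of 100 µM for all 4 libraries, 2 made after 6 h and 2 made after 24 h of treatment. Both 24 h libraries are marked as a re-analysis and neither 6 h library is. Any difference in handling or processing that goes with this mark cannot be told apart from time. Vehicle libraries were not analysed here, so effects of BLU6864 and of a longer culture cannot be told apart either. All libraries come from 1 cell line, and no label says that libraries of a time point came from separate cultures, so each P measures only the spread between libraries, which may be technical.

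Total counts ranged from 23917056 to 27457040 per library. Counts are given normalized, that is, scaled to a common library size, and were compared by edgeR's quasi-likelihood test over the 12876 genes with sufficient counts. A gene was called where its log2 fold change passed 0.5 in size with an unadjusted P under 0.01. The thyroid markers PAX8 (19124 to 22978 raw counts), FOXE1 and TG were present at both times, while NKX2-1 and TSHR had 0 counts in every library. The keratin genes KRT8 and KRT18 were present, EPCAM and CDH1 had at most 11 raw counts, and each of 5 leukocyte markers had at most 5. Of the fibroblast and endothelial markers, LUM had 39 to 71 raw counts, VWF 3 to 16 and the others at most 11. In RNA from whole cultures, fewer cells with a transcript and less of it per cell cannot be told apart.

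Several tubulin genes and STMN1 fell between 6 h and 24 h of BLU6864. TUBA1B, TUBA1C, TUBB4B, TUBB3 and STMN1 were called lower, 5 of the 10, and no gene of the 10 was called higher. Across all genes tested, 17.7% were called lower and 17.4% higher. With an adjusted P under 0.05 and no cutoff on size, 7 of the 10 were lower and 2 higher (background 32.6% and 33.0%). Both 24 h libraries lay under both 6 h libraries for 8 genes and over them for the other two, TUBA1A and TUBB2A, against 40.8% and 41.0% of all genes tested. The median log2 fold change was -0.63 over the 10 genes and 0.0029 over all genes tested.

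**Figure D1:**
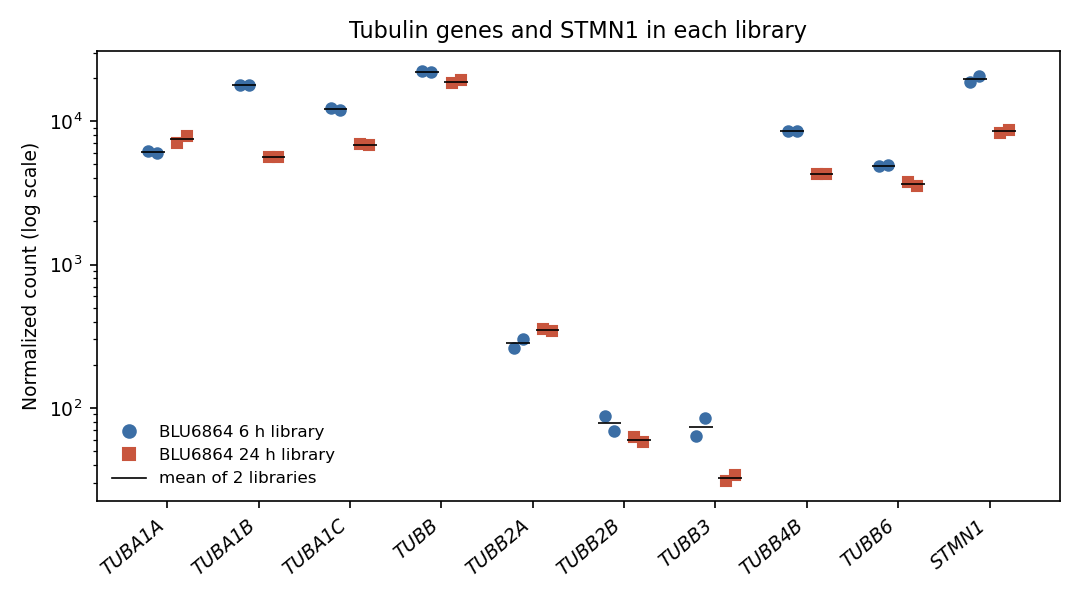
Normalized count on a log scale (y) of each gene (x) in the 2 libraries of 6 h (circles) and the 2 of 24 h (squares), with lines at the means. TUBA1B dropped from a mean of 17921 to 5660, whereas TUBB kept the highest count of the 10 at 24 h, with a mean of 18901. Counts here are not corrected for transcript length.

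TUBA1B, a ubiquitous α-tubulin gene (ENSG00000123416, hg19 chr12:49521565-49525180), had 17828 and 18014 normalized counts at 6 h and 5662 and 5659 at 24 h. The fall of 68.4% was far larger than the spread between libraries, with means of 17921 ± 132 and 5660 ± 2.20 (SD, n = 2). Its log2 fold change was -1.66 ± 0.0764 (SE), with an adjusted P of 1.74e-16. Of all genes tested, 4.36% had a lower log2 fold change.

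TUBA1C, the α-tubulin gene that lies beside TUBA1A (ENSG00000167553, hg19 chr12:49582519-49667114), had 12440 and 12069 normalized counts at 6 h against 6916 and 6820 at 24 h. Both 24 h libraries were lower, and the log2 fold change was -0.84 ± 0.0739 (SE, adjusted P = 1.63e-10).

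TUBA1A, an α-tubulin gene prominent in the developing brain and mutated in cortical malformations (ENSG00000167552, hg19 chr12:49578579-49583107), went the other way. It had 6220 and 6030 normalized counts at 6 h and 7047 and 7951 at 24 h. The groups did not overlap, but the log2 fold change of 0.29 ± 0.0756 (SE, adjusted P = 0.00144) did not reach 0.5, and the adjusted P was 0.0625 without 24 h replicate 2. The spread between the 24 h libraries (7499 ± 639, SD, n = 2) was wider than between those of 6 h (6125 ± 135).

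The 3 TUBA1 genes lie within the same stretch of chromosome 12 and are close copies. Their coding sequences were 96.3% to 97.3% identical (GENCODE 44). A 50-base read therefore cannot always be placed on 1 of them. Of the 50-base windows of each transcript, 52.7% occurred in no other gene for TUBA1A, 37.2% for TUBA1B and 73.3% for TUBA1C, and with 100-base windows 78.8%, 62.6% and 87.7%. TUBA1A and TUBA1C also overlap by 589 bp in the table. How reads on shared sequence were counted is not stated in the sources used here, so the split of counts among the 3 genes is uncertain. Their sum does not depend on how counted reads were split among them, but it would miss shared reads that were left out. It fell by 44.8%, from 36489 and 36113 to 19625 and 20429 normalized counts.

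Among the β-tubulin genes, TUBB4B, a broadly expressed isotype found in cilia (ENSG00000188229, hg19 chr9:140135665-140138159), had 8610 and 8535 normalized counts at 6 h and 4307 and 4254 at 24 h. The libraries of each time were nearly level, and the mean fell by 50.1%. The log2 fold change came to -1.0 ± 0.0718 (SE, adjusted P = 2.27e-12).

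TUBB, the constitutive β-tubulin gene of most tissues (ENSG00000196230, hg19 chr6:30687978-30693203), had 22336 and 22001 normalized counts at 6 h and 18495 and 19307 at 24 h. The log2 fold change came to -0.23 ± 0.0782 (SE, adjusted P = 0.0121), short of the cutoff on size. The adjusted P was 0.167 without 24 h replicate 1 and 0.0634 without 24 h replicate 2.

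TUBB6, a β-tubulin gene with wide expression outside the brain (ENSG00000176014, hg19 chr18:12307668-12344319), had 4855 and 4965 normalized counts at 6 h and 3782 and 3533 at 24 h. The log2 fold change of -0.42 ± 0.0713 (SE, adjusted P = 9.60e-06) also fell short of the cutoff on size. In the table its span overlaps that of AFG3L2.

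The remaining β-tubulin genes, which are best known from neurons, had far fewer counts. TUBB3 (ENSG00000258947, hg19 chr16:89987800-90005169) had 63.7 and 84.4 normalized counts at 6 h and 30.9 and 34.1 at 24 h. The log2 fold change, -1.19 ± 0.234 (SE, adjusted P = 7.23e-05), was about as low as that of STMN1 but had the largest standard error of the 10. A second row of the same symbol (ENSG00000198211, hg19 chr16:89985573-90002500), which overlaps the first, had 0 counts in every library and was not tested.

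TUBB2A (ENSG00000137267, hg19 chr6:3153903-3157760) had 260 and 302 normalized counts at 6 h and 353 and 342 at 24 h. The log2 fold change of 0.30 ± 0.109 (SE, adjusted P = 0.0183) was under the cutoff on size. The adjusted P was 0.129 with DESeq2, 0.195 without 6 h replicate 1 and 0.0574 without 24 h replicate 1. TUBB2B (ENSG00000137285, hg19 chr6:3224495-3231964) had 87.4 and 69.1 normalized counts at 6 h and 62.8 and 57.4 at 24 h, with a log2 fold change of -0.37 ± 0.200 (SE) that did not pass either test (adjusted P = 0.104).

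TUBB2A and TUBB2B are 98.1% identical in coding sequence, and only 35.4% and 45.1% of their 50-base windows occurred in no other gene. Their summed normalized counts were 348 and 371 at 6 h and 415 and 399 at 24 h. The other β-tubulin pairs were 81.3% to 88.7% identical, and 80.7% to 98.9% of the 50-base windows of TUBB, TUBB3, TUBB4B and TUBB6 were found in that gene alone. For TUBB, most of the shared windows were shared with the pseudogene TUBBP1. The first 60 coding bases of the most abundant β-tubulin genes encode the start of the chain, which holds the part read in autoregulation. A capital marks a difference in bases only, and the encoded chains were not compared. Capitals stand at the 13 positions where the bases of the 6 β-tubulin genes were not all the same (GENCODE 44, 5′ to 3′).
TUBB: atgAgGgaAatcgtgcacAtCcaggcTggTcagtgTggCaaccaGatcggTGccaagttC
TUBB4B: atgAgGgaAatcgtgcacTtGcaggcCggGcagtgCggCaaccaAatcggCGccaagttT
TUBB6: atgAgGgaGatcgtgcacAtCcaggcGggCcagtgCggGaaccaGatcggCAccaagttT

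Of the neuronal markers, 7 were in the table, DCX had 0 counts and 3 could be tested. SNAP25 went from 19 and 21 raw counts to 6 in each 24 h library and SYT1 from 32 and 49 to 25 and 13, while RBFOX3 went from 6 and 4 to 22 and 19. Summed over the list, normalized counts were 66.9 and 73.9 at 6 h and 54.8 and 43.8 at 24 h. Their part in the fall of TUBB3 was not tested.

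STMN1, the stathmin gene (ENSG00000117632, hg19 chr1:26210672-26233482), had 18736 and 20813 normalized counts at 6 h and 8344 and 8636 at 24 h. Its mean fell by 57.1%, from 19775 ± 1469 to 8490 ± 206 (SD, n = 2), and every 24 h value lay well under both 6 h values. The log2 fold change was -1.22 ± 0.0797 (SE, adjusted P = 3.32e-13), and 6.62% of all genes tested had a lower one. All 50-base windows of its transcript were found in that gene alone.

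**Figure D2:**
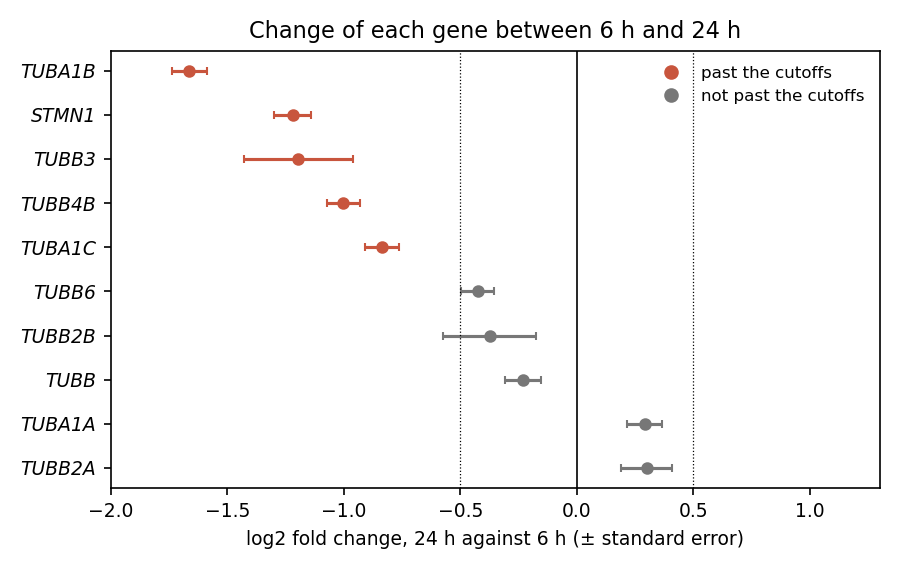
Log2 fold change at 24 h against 6 h (x) of each gene (y), with bars of ± 1 standard error and dotted lines at the cutoffs of -0.5 and 0.5. The 5 genes called lower range from TUBA1B at -1.66 to TUBA1C at -0.84, and the other genes lie between the cutoffs.

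**Figure D3:**
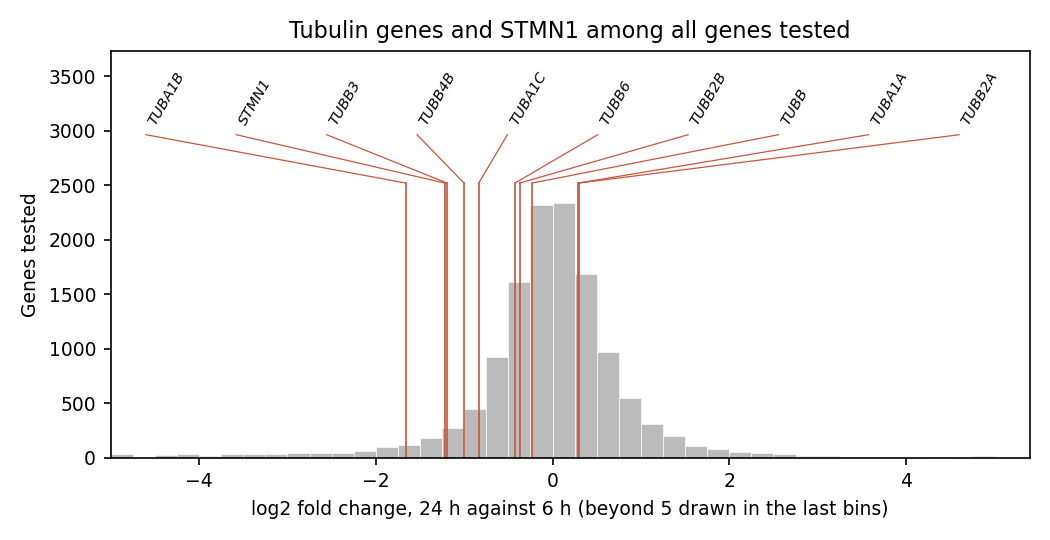
Histogram of the log2 fold change at 24 h against 6 h (x) over the 12876 genes tested (y, number of genes), with lines at the 10 genes. Most of the 10 lie left of the peak of the distribution, near 0, and TUBA1A and TUBB2A lie to its right at 0.29 and 0.30.

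Levels between genes were compared as normalized counts per kilobase of the longest coding transcript. At 6 h, STMN1 (10944 and 12157 per kilobase) and TUBA1B (10958 and 11072) were highest and overlapped. They were followed by TUBB, TUBB4B, TUBA1C, TUBA1A, TUBB6 and TUBB2A, none of which overlapped the next, and TUBB2B and TUBB3 overlapped at the bottom (32.2 to 45.5). At 24 h, TUBB was highest (6371 and 6651 per kilobase), then STMN1 (4874 and 5044), TUBA1A (3511 and 3961) and TUBA1B (3480 and 3478). No neighbours in that order overlapped, although TUBA1A and TUBA1B were separated by less than the spread of TUBA1A. The order depends on the length used, and among the TUBA1 genes also on how shared reads were split. With median transcript lengths, TUBA1B made up 49.8% and TUBA1A 21.6% of α-tubulin at 24 h, and TUBB6 35.3% and TUBB4B 17.3% of β-tubulin. With no correction for length, TUBA1C (32.6%) stood above TUBA1B (26.9%) at 24 h.

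The make-up of the tubulin counts per kilobase differed between the times. Shares of the TUBA1 genes rest on a split of shared reads that is uncertain. Among counts per kilobase on all α-tubulin genes, TUBA1B made up 56.8% and 57.8% at 6 h and 35.3% and 33.9% at 24 h. TUBA1A went from 16.1% and 15.7% to 35.6% and 38.6%. With median in place of longest transcript lengths, TUBA1A went from 7.75% to 21.6% and TUBA1B from 69.2% to 49.8% on average. The direction of both held but not the near equality at 24 h, although the median length of TUBA1B is shorter than its coding sequence. With MANE Select lengths, chosen after seeing the data, TUBA1A (41.1%) stood above TUBA1B (31.9%) at 24 h. The share of TUBA1C was 22.6% ± 0.383 and 24.2% ± 0.911 (SD, n = 2), and that of TUBA4A, a widely expressed α-tubulin gene, 4.17% and 4.01%.

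Among β-tubulin genes, TUBB made up 48.0% and 47.5% of counts per kilobase at 6 h and 55.8% and 57.8% at 24 h. TUBB4B went from 34.4% and 34.2% to 24.2% and 23.6%. The share of TUBB6 was 16.3% ± 0.315 at 6 h and 17.0% ± 0.926 at 24 h (SD, n = 2), within the spread of the 24 h libraries, and the sign of that difference turned when length was not corrected for. TUBB2A, TUBB2B and TUBB3 together stayed a small part, and TUBB2A was the largest of them at 1.09% and 1.87%.

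The summed α-tubulin level was 19282 and 19161 normalized counts per kilobase at 6 h and 9866 and 10261 at 24 h, and the summed β-tubulin level was 16030 and 15954 against 11408 and 11514. The ratio of α to β was 1.20 in both 6 h libraries, and 0.865 and 0.891 at 24 h. The size of this ratio depends on the length used, and so does whether α lies above or below β at 24 h. Without correction for length, the mean sums were 38325 for α and 36100 for β at 6 h. At 24 h they were 21055 and 27285. The ratio of TUBA1A to TUBA1B in normalized counts went from 0.349 and 0.335 to 1.24 and 1.40, and that of TUBB to TUBB4B from 2.59 and 2.58 to 4.29 and 4.54. None of these pairs of values overlapped, but the ratio of TUBA1A to TUBA1B rests on an uncertain split of shared reads. With 2 libraries against 2, an exact two-sided permutation test cannot give a P under 0.333, so the shares and ratios are given as a description.

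**Figure D4:**
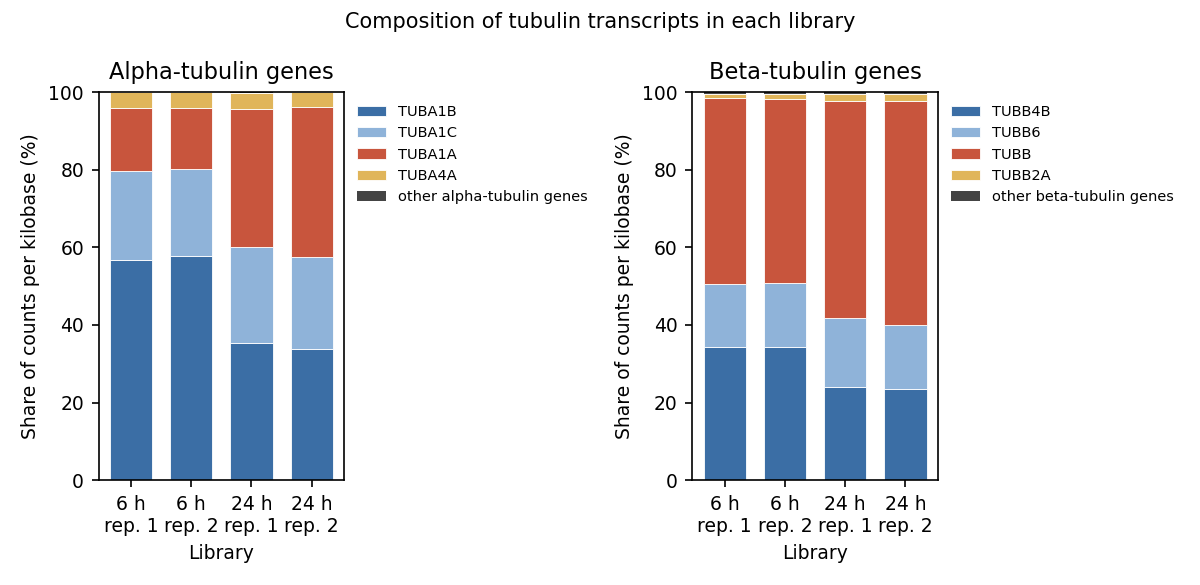
Share of counts per kilobase (y, in percent) taken by each α-tubulin gene (left) and β-tubulin gene (right) in each of the 4 libraries (x), stacked to 100%. On average TUBA1B takes 57.3% at 6 h and 34.6% at 24 h, TUBA1A 15.9% and 37.1%, and TUBB4B 34.3% and 23.9%. How shared reads were split among the TUBA1 genes is uncertain.

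Promoters are shown for the 4 abundant genes with the largest falls and for TUBA1A, which did not fall. Each is the stretch of 250 bases before the start of transcription in RefSeq (GRCh38.p14, 5′ to 3′ along the gene), with capitals at CCAAT, the CCAAT box, and at TTTGAA, the cell cycle homology element, both known from promoters of genes used in mitosis.
TUBA1B, chr12:49131396-49131645, minus strand: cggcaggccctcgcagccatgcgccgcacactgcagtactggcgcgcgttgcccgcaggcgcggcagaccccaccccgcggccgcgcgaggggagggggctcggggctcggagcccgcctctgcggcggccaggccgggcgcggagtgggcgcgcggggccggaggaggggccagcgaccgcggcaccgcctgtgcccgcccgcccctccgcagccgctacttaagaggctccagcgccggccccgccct
TUBA1A, chr12:49189081-49189330, minus strand: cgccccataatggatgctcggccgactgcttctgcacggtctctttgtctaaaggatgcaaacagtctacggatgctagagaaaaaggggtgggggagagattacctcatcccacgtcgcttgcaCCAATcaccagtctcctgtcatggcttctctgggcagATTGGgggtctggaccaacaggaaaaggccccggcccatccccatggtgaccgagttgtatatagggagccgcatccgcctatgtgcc
TUBA1C, chr12:49264832-49265081, plus strand: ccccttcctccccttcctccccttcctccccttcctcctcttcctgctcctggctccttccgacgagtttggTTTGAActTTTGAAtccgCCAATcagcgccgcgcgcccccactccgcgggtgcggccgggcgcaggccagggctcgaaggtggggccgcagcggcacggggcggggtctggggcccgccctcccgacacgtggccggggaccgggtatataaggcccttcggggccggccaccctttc
TUBB4B, chr9:137241037-137241286, plus strand: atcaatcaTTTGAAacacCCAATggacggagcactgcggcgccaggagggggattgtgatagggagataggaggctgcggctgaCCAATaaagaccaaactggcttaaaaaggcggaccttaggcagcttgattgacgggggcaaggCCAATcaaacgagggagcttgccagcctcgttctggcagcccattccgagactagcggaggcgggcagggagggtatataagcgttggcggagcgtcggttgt
STMN1, chr1:25906420-25906669, minus strand: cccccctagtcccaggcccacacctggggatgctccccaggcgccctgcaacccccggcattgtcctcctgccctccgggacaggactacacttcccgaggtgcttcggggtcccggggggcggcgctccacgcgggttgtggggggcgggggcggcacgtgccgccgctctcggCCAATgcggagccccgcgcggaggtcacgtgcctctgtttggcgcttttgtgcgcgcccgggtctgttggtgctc
Both strands were searched, and no 2 capitalised matches overlapped. TUBB4B holds 3 CCAAT boxes and 1 TTTGAA, TUBA1C 1 and 2, TUBA1A 2 and 0, STMN1 1 and 0, and TUBA1B 0 of either. Of the 10 genes, 8 hold CCAAT in this window and 2 hold TTTGAA, against 32.0% and 13.3% of all 35116 RefSeq promoters. CCAAT was present in TUBA1C, TUBB3, TUBB4B and STMN1, which were called lower, and in TUBA1A, TUBB, TUBB2B and TUBB6, which were not called. TUBA1B, with the largest fall, and TUBB2A, which was not called, had none in these 250 bases. A part of these motifs in the changes was not tested. GGGCGG, the GC box, was present in 8 of the 10 genes, called or not, and in 42.6% of all promoters.

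Genes outside the 10 that make, fold, modify or bind tubulin were grouped by function, and their counts stand beside the 17.7% lower and 17.4% higher over all genes tested. Of the other tubulin genes, 6 of 13 could be tested, of which 4 were called lower and 0 higher (median log2 fold change -0.94). TUBA4A went from 2011 and 1993 normalized counts to 1027 and 986 (log2 fold change -0.99 ± 0.0715, SE). TUBG1, the γ-tubulin that nucleates microtubules, had a log2 fold change of -0.88, and TUBD1 and TUBE1, the δ- and ε-tubulins of centrioles, had -1.19 and -0.89. TUBG2 (-0.35) and TUBAL3 (-1.18, on at most 16 raw counts) were not called, and TUBA3D, with 5 and 6 raw counts at 6 h and 12 and 8 at 24 h, was not tested. Of the other stathmin genes, STMN2 and STMN4 had 0 counts, and STMN3 had 57 and 68 raw counts at 6 h and 54 and 31 at 24 h and was not called. It was called lower without 24 h replicate 1.

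New tubulin is folded by prefoldin, the chaperonin CCT and the tubulin cofactors. Of 21 such genes tested, 3 were called lower, a share near the 17.7% of all genes, and 1 higher (median log2 fold change -0.04). The prefoldin genes PFDN2 (-0.96) and VBP1 (-0.89) and the β-tubulin cofactor TBCA (-0.56) fell, and the chaperonin subunit CCT6A rose (0.61). Of the 4 genes known from tubulin autoregulation, none was called in either direction. At an adjusted P under 0.05, 0 were lower and 2 higher, against 32.6% and 33.0% of all genes tested. TTC5, which recognises the start of the nascent tubulin chain, had a log2 fold change of 0.0080 ± 0.0808 (SE).

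Enzymes that modify tubulin were called lower in 3 and higher in 6 of 21 tested (median log2 fold change -0.0057), and the share called lower was near the 17.7% of all genes. TTLL7, a glutamylase of β-tubulin, fell by 1.16 on the log2 scale, and the detyrosinating enzymes VASH2 (-0.77) and KIAA0895L (-0.58) also fell, while VASH1 (0.61), TTLL6 (0.62) and TTLL3 (0.58), a glycylase, rose. With DESeq2, or without 6 h replicate 2, 3 genes of this group were called higher, against 17.4% of all genes. The γ-tubulin complex, on which microtubules start, had 4 of 9 called lower and 0 higher (median -0.14), led by MZT1 (-1.80), TUBGCP5 (-1.33) and NEDD1 (-0.93).

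Among 29 microtubule-associated genes, 11 were called lower and 4 higher (median log2 fold change -0.26). The spindle genes PRC1 (-3.73), TPX2 (-3.58) and TACC3 (-2.52) had the largest falls with over 50 normalized counts on average, and MAP7D3 (1.21), MAPT, which encodes tau (1.16), and CLIP2 (1.05) rose. Of 7 genes encoding or regulating severing enzymes, 4 were called lower and 1 higher (median -0.57), with FIGNL1 at -1.55, KATNAL2 at -0.67, KATNA1 at -0.66 and FIGN at 0.77. Of 10 kinases known to phosphorylate stathmin, 5 were called lower and 0 higher (median -0.54), among them CDK1 (-4.47), AURKB (-3.97) and CAMK4 (-1.65).

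Proliferation genes were lower at 24 h as well. All 12 were called lower (median log2 fold change -4.25), and their summed normalized counts went from 56436 and 55454 at 6 h to 4608 and 4681 at 24 h. TOP2A, a topoisomerase of dividing cells, had -4.75 and CCNA2, a cyclin, -4.48. Their part in the falls of TUBA1B, TUBA1C, TUBB4B, TUBB3 and STMN1 was not tested.

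**Figure D5:**
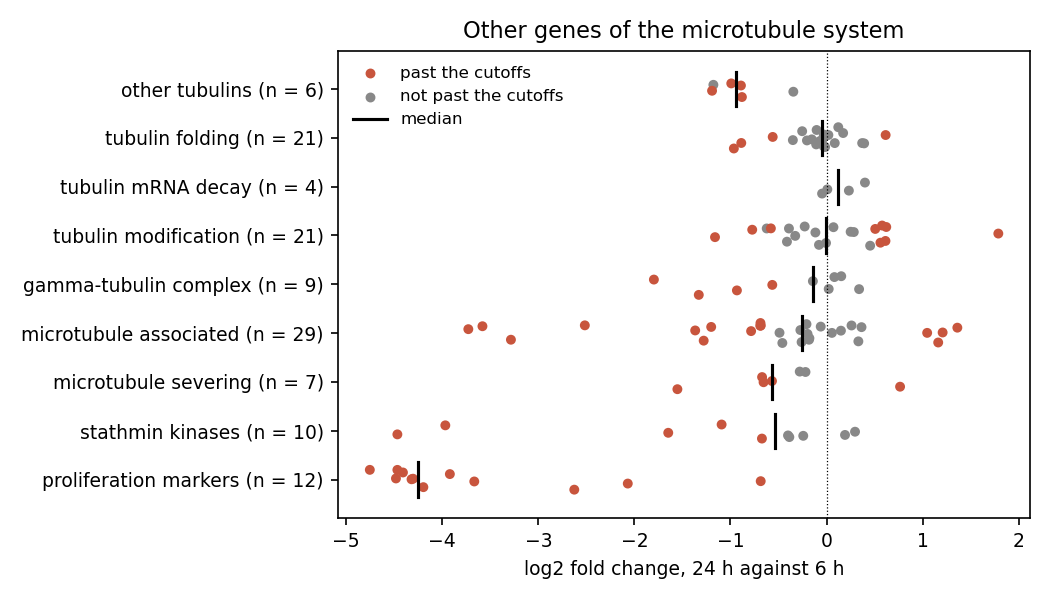
Log2 fold change at 24 h against 6 h (x) of the genes tested in each group (y, with the number tested), red where past the cutoffs and grey otherwise, with a black bar at the median. The medians run from -4.25 for the proliferation genes to 0.12 for the genes of tubulin mRNA decay, and the other tubulins sit at -0.94.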

How the data were processed

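RNA was sequenced from TPC1 cells after 6 h or 24 h of BLU6864, with 2 libraries per time. The authors aligned reads to hg19 with STAR, given as version 2.3 in the submitters' processing notes and as a later version in the methods. They deposited raw counts per gene. Counting program, annotation and strand setting are not given in the sources used here. The labels give 100 µM and single-end reads of 50 bases, whereas the methods give the dose in nM and paired reads of 100 bases. The authors also deposited a signal (counts divided by a DESeq2 size factor) and the columns of their own comparison, namely a log2 fold change, a Wald score and p-values. Neither the 4 signal columns nor the comparison columns were used for any result, and 0 columns of per-sample values had no matching sample.

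The test was that of edgeR 4.0.16 under R 4.3.3 (filterByExpr, TMM, quasi-likelihood test, time as the single factor), with Benjamini-Hochberg adjustment over the 12876 genes kept. Cutoffs were a log2 fold change over 0.5 in size and an unadjusted P under 0.01. For normalized counts, each library was scaled by its TMM-adjusted size to the mean of the 4. Transcript lengths, coding sequences and windows were from GENCODE 44 (hg38), and promoters from a RefSeq table (GRCh38.p14). They were matched by symbol for all 10 genes and not joined to the hg19 positions.

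The 10 genes and all lists were chosen with earlier results of these data known. All 10 were named, as were other tubulin and stathmin genes over 10 counts in any library. Of each other list, up to 3 genes per direction past the cutoffs were named, those with the largest change and a mean normalized count of at least 50. TTC5 and the marker genes not past the cutoffs were added after their values were seen. Some items are not reported here. On simulated counts for 12876 genes, edgeR recovered 95% of 200 changed genes with 4.52% false calls, and DESeq2 1.42.0 recovered 90% with 3.74%. These rates hold for the simulated counts only. In the measured counts, 17.7% of genes tested were called lower and 17.4% higher. The rate of false calls among them was not tested. Alternatives were DESeq2, library size alone, upper quartile scaling, other filters, a replicate block, leaving out single libraries, and calling by an adjusted P under 0.05. Plots were drawn with matplotlib 3.10.9.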

Additional observations from a re-analysis of the deposited data

How the results depend on the processing

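Genes called lower numbered 5 under DESeq2, upper quartile scaling, library size alone, a minimum of 10 counts per library, no count filter, and with single libraries left out (range 5 to 5), and 7 with an adjusted P under 0.05 and no cutoff on size. Genes called higher numbered 0 in those fits (range 0 to 0 with a library left out) and 2 with an adjusted P under 0.05 and no cutoff on size. All 100 alternative log2 fold changes of the 10 genes kept their direction and their call (called lower or not called). With libraries left out, TUBA1B ranged from -1.67 to -1.66, STMN1 from -1.29 to -1.15, TUBB3 from -1.38 to -0.97 and TUBB2B from -0.54 to -0.20, past 0.5 in size without 6 h replicate 2 but not past the cutoff on P. With the replicate number as a replicate block, 5 genes were lower and 0 higher, and STMN3 was called lower, as it was without 24 h replicate 1, but same-numbered libraries deviated together only weakly (r = 0.0844), so the numbers are not taken to pair the libraries. Isotype shares depend on the length used, and 47 of 54 alternative shares moved by more than 1 SD. TUBA1A made up 7.75% of α-tubulin at 6 h and 21.6% at 24 h with median transcript lengths, and 18.3% and 41.1% with MANE Select lengths, an alternative chosen after seeing the data. The genes tested for tubulin modification that were called higher numbered 3 without 6 h replicate 2, and those called lower 1 without 24 h replicate 1. Severing genes called lower numbered 2 without 6 h replicate 1, and folding genes called higher 2 without 24 h replicate 1. With 2 libraries per time, the spread is estimated mostly from all genes together, and TUBB2B and TUBB3 rest on fewer than 100 counts per library. The 2 libraries of a time differed by more than sampling noise (chi-square per degree of freedom 7.97 at 24 h and 10.5 at 6 h).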
